A study of Mus musculus with 4 samples.

Results

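The 8 genes described here encode Setd2 and other enzymes that have been given as methyltransferases of lysine 36 of histone H3 (H3K36): Setd2, Nsd1, Whsc1, Whsc1l1, Ash1l, Setd3, Setmar and Smyd2. They were taken by symbol from a deposited table of 46517 genes, and all 8 were found and passed the filter on low values. RNA had been sequenced from mouse LSK cells, which are sorted as negative for mature lineage antigens and positive for Sca-1 and c-Kit, and contain the blood stem cells and early progenitors. Of the 4 libraries, 2 were labelled Setd2f/f (wild-type Setd2, with both alleles floxed) and 2 Setd2D/D (Setd2 knocked out), all from C57BL/6 animals aged 8 to 10 weeks. The labels name no Cre driver, deleted exons or number of mice per library. The limma and permutation p-values below therefore cover only library-to-library spread, possibly of technical origin. How the authors' deposited FDR treats this spread is not stated.

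Methylation of H3K36 is built up in steps by different enzymes. The NSD proteins and Ash1l add up to 2 methyl groups, while Setd2 travels with elongating RNA polymerase II and places the trimethyl mark in the bodies of transcribed genes. Proteins that read these marks guide splicing, DNA repair, DNA methylation and the silencing of false start sites within genes. Setd2 is a tumour suppressor gene in leukaemia, and NSD genes are rearranged or overexpressed in several blood cancers.

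Levels are given in TPM, a length-normalised share of the transcripts in a library that can be compared between genes. LSK marker genes were present, with Kit at 224 and 249 TPM in Setd2f/f, against 301 and 285 TPM in Setd2D/D. Ly6a (Sca-1) was at 128 and 124 TPM against 46.5 and 80.6 TPM, and Cd34 at 773 and 747 TPM against 520 and 476 TPM. Flt3 was at 332 and 279 TPM against 276 and 223 TPM, and Ptprc at 152 and 125 TPM against 138 and 146 TPM. These 5 LSK gate and progenitor markers summed to 1609 and 1524 TPM in Setd2f/f, against 1282 and 1211 TPM in Setd2D/D. The 5 T and NK cell markers summed to 17.4 and 5.79 TPM in Setd2f/f, against 1.18 and 5.70 TPM in Setd2D/D. Most of the highest sum came from Cd4, at 14.6 and 4.15 TPM against 0 and 2.29 TPM, while Cd3e did not exceed 0.57 TPM and was listed at 0 in 2 libraries. The 5 stromal and endothelial markers summed to 125 and 97.8 TPM against 90.5 and 83.6 TPM. Nearly all of this came from Pecam1, at 81.2 and 73.1 TPM against 84.55 and 70.7 TPM, and from Emcn. Emcn was at 42.85 and 24.3 TPM in Setd2f/f, against 5.68 and 11.7 TPM in Setd2D/D. Cdh5, Col1a1 and Cxcl12 did not exceed 0.56 TPM in any library. The summed level of 7 erythroid markers was 67.6 and 48.1 TPM in Setd2f/f, against 278 and 276 TPM in Setd2D/D, and that of 5 B cell markers was 336 and 197 TPM against 99.7 and 148 TPM. The 8 neutrophil and monocyte markers summed to 882 and 1064 TPM against 460 and 1183 TPM, with the lowest value in Setd2D/D replicate 1. Most of each sum came from S100a8 and S100a9. Both knockout libraries lay below both controls for 3 of the 8 (Itgam, Ngp and Ltf) and above for 0, where 27.6% of all tested genes lay below. Ltf was at 54.9 and 75.3 TPM against 14.15 and 40.95 TPM, and Ngp at 103 and 136 TPM against 24.6 and 98.8 TPM. In bulk RNA, fewer cells of a type and less RNA per cell cannot be told apart, and the part of these shifts in the changes below was not tested. Setd2D/D replicate 1 stood apart from the other libraries, with correlations of log2(TPM + 1) across genes of 0.91 with each of them, where the 2 Setd2f/f libraries correlated at 0.96.

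Setd2 was the targeted gene. It lies on chromosome 9 (GRCm38, 110532597 to 110618633, plus strand) and has 3 protein-coding transcripts among 10 in the annotation. The Setd2f/f libraries held 78.9 and 68.0 TPM, and the Setd2D/D libraries 43.4 and 49.5 TPM. Both knockout libraries lay below both controls, and the gap between the groups was wider than the spread within either. The means were 73.5 ± 7.72 and 46.5 ± 4.34 TPM (SD, n = 2 libraries each), a ratio of 0.633. The TPM values are given for the whole gene, so that any transcripts lacking only the deleted exons would be included. They do not measure how much intact messenger was left. Whether such transcripts, or cells that kept the gene, were present was not tested.

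In the limma fit over 14755 genes the log2 change of Setd2 was -0.65 with an SE of 0.15 and a 95% interval from -1.04 to -0.26, which corresponds to a ratio between 0.488 and 0.834. The unadjusted p was 0.00797, and 2.41% of the tested genes had a smaller one. After Benjamini-Hochberg adjustment over all genes the limma p was 0.329, so Setd2 did not pass 0.05. In the authors' deposited table, the log2 change of Setd2 was -0.73 with an FDR of 5.84e-06. That table gives abundance as reads scaled to library size (CPM), with a mean log2 CPM of 7.68 for Setd2. Leaving out any 1 library gave a limma log2 change between -0.75 and -0.54, and the unadjusted p reached 0.0657 without Setd2f/f replicate 1.

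**Figure D1:**
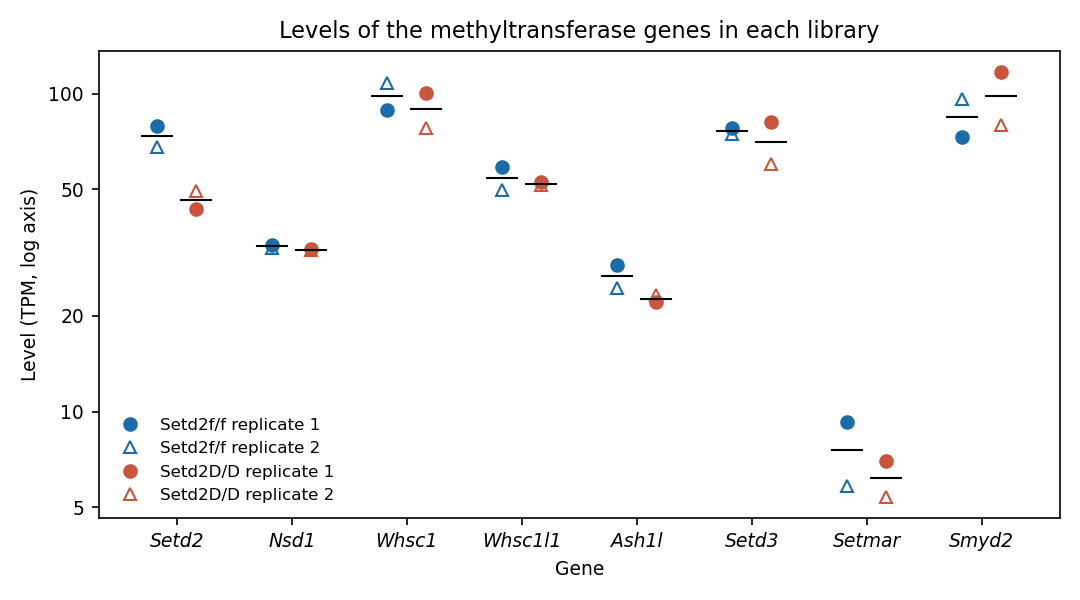
Level in TPM (log axis) of each gene in the 2 Setd2f/f libraries (blue) and the 2 Setd2D/D libraries (red), with replicate 1 as filled circles, replicate 2 as open triangles and the group mean as a black line. Setd2 lies at 78.9 and 68.0 TPM in Setd2f/f and lower, at 43.4 and 49.5 TPM, in Setd2D/D, and Setmar was the gene of lowest level in all 4 libraries.

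The 3 NSD genes encode the main writers of H3K36 dimethylation. Nsd1 (chromosome 13, 55209782 to 55318325), the gene mutated in the overgrowth disorder Sotos syndrome, was at 33.5 and 32.6 TPM in Setd2f/f, against 32.5 and 32.2 TPM in Setd2D/D. The 4 values spanned less than 2 TPM, so that the lower position of the knockout libraries amounted to a ratio of means of 0.978. Its limma log2 change was -0.03 (SE 0.14), with an interval from -0.40 to 0.34, and turned to between 0.02 and 0.05 when the libraries were rescaled.

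Whsc1, now named Nsd2 (chromosome 5, 33820725 to 33897975), is the gene deregulated by a recurrent translocation of multiple myeloma. It was at 89.0 and 108 TPM in Setd2f/f, against 101 and 77.7 TPM in Setd2D/D. The groups overlapped, and each held 1 library near 100 TPM. Its log2 change was -0.15 (SE 0.18, interval -0.62 to 0.33) by limma and became 0.04 without Setd2D/D replicate 2. In the authors' deposited table it was -0.27 with an FDR of 0.412, a gap of -0.125 to the log2 ratio of mean TPM that was the widest among the 8 genes. The gene Nelfa on the opposite strand shares 60 exon bases with Whsc1 and was at a mean of 39.9 TPM.

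Whsc1l1, now named Nsd3 (chromosome 8, 25601601 to 25719667), also yields a short form without the SET domain. It was at 58.6 and 49.7 TPM in Setd2f/f, against 52.7 and 51.5 TPM in Setd2D/D. Both knockout libraries fell between the controls. The log2 change was -0.05 (SE 0.14, interval -0.42 to 0.32), between 0.002 and 0.008 after rescaling, and 0.07 without Setd2f/f replicate 1. Gene-level values do not separate the short form from the long one.

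Summed over the 3 NSD genes, the level was 181 and 190 TPM in Setd2f/f, against 186 and 161 TPM in Setd2D/D. The ratio of Setd2 to this sum was 0.436 and 0.358 in Setd2f/f and 0.234 and 0.307 in Setd2D/D. The groups did not overlap, and the mean log2 difference was -0.56 (exact permutation test, 2-sided, p = 0.333, the smallest that 2 libraries against 2 allow).

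Ash1l, a trithorax-type enzyme that dimethylates H3K36 at developmental genes such as the Hox cluster, lies on chromosome 3 (88950622 to 89079375). It was at 28.9 and 24.6 TPM in Setd2f/f, against 22.2 and 23.2 TPM in Setd2D/D. The knockout libraries lay below both controls, although the nearest pair differed by less than the 2 controls did. The ratio of means was 0.849, with a limma log2 change of -0.22 (SE 0.17, interval -0.67 to 0.23). The direction was the same in all 14 alternatives, with a log2 change between -0.33 and -0.11. On the opposite strand, Dap3 shares 352 exon bases with Ash1l, 2.37% of its merged exon length, and was at a mean of 119.9 TPM, above Ash1l itself.

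The 3 remaining genes encode enzymes whose role at H3K36 is less settled. Setd3 (chromosome 12, 108106431 to 108179314) is now known as the enzyme that methylates a histidine of actin. It was at 77.9 and 74.8 TPM in Setd2f/f, against 81.3 and 60.1 TPM in Setd2D/D. The knockout libraries lay on either side of the controls, and the log2 change of -0.13 (SE 0.18) became 0.09 without Setd2D/D replicate 2.

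Smyd2 (chromosome 1, 189880492 to 189922363), a mostly cytoplasmic enzyme that also methylates p53, was the 1 member with a mean change above 0. It was at 72.8 and 96.3 TPM in Setd2f/f, against 117 and 79.9 TPM in Setd2D/D. The groups overlapped, the log2 change was 0.20 (SE 0.24, interval -0.43 to 0.83), and it was -0.07 without Setd2D/D replicate 1. An antisense gene, Gm37422, covers 30.0% of the merged exon length of Smyd2 and was at a mean of 5.67 TPM. The labels do not say whether the libraries kept strand, so reads of this pair, and those of Ash1l and Dap3 or Whsc1 and Nelfa where they overlap, may not be separable.

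Setmar (chromosome 6, 108065045 to 108077122) encodes in primates a SET domain fused to a transposase, a fusion that mice lack. It was at 9.30 and 5.83 TPM in Setd2f/f, against 6.98 and 5.41 TPM in Setd2D/D. The groups overlapped, and the 2 controls alone differed by a factor of 1.6. It had the fewest reads of the 8, at a mean CPM of 7.09 from the authors' deposited table, and the widest interval (log2 change -0.23, SE 0.33, interval -1.09 to 0.63). The change became 0.07 without Setd2f/f replicate 1, the higher of the controls.

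**Figure D2:**
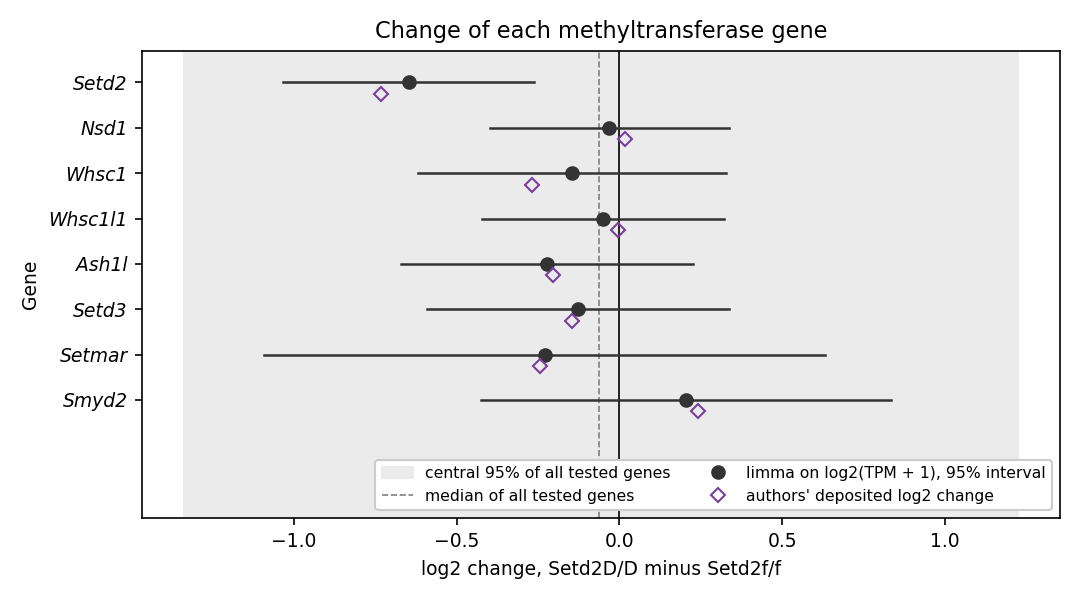
The log2 change of each gene, Setd2D/D minus Setd2f/f, from limma with its 95% interval (filled circles and lines) and from the authors' deposited table (open diamonds), over the central 95% of all tested genes (grey, -1.34 to 1.22) and their median (dashed, -0.06). The limma interval of Setd2 lies below 0, and those of the other 7 genes cross 0.

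As a group, 0 of the 8 genes passed limma at an adjusted p of 0.05, where 0.0678% of all tested genes (10 of 14755) did, and 1 of 8, Setd2, had an unadjusted p under 0.05, where 11.2% of all tested genes (1647 of 14755) did. A share of 1 in 8 is near that background. Setd2 alone (1 of 8) passed an FDR of 0.05 in the authors' deposited table, where 3.15% of the 23955 genes did. The limma log2 change was below 0 for 7 of the 8, with a median of -0.14, while 57.9% of all tested genes were below 0 with a median of -0.06. Rescaling the libraries by trimmed means, median ratios or quantiles turned Nsd1 and Whsc1l1 to values above 0. Both knockout libraries lay below both controls for 3 of the 8 (Setd2, Nsd1 and Ash1l), against 27.6% of all tested genes. For the 7 genes other than Setd2, the lowest bound of any interval was -1.09 (Setmar) and the highest was 0.83 (Smyd2). The Setd2 ratio of mean TPM, 0.633, lay below the limma intervals of 5 of them. Their lower bounds as ratios were 0.759 for Nsd1, 0.747 for Whsc1l1, 0.745 for Smyd2, 0.664 for Setd3 and 0.652 for Whsc1. The Setd2 ratio lay within the intervals of Ash1l and Setmar. The limma interval of Setd2 itself, 0.488 to 0.834 as a ratio, overlapped those of all 7.

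The difference between Setd2 and each other gene was also taken within each library, where scaling cancels almost wholly. Log2(TPM + 1) of Setd2 minus the mean of the other 7 was 0.85 and 0.71 in Setd2f/f and 0.01 and 0.43 in Setd2D/D. The groups did not overlap, and the difference of -0.56 had the smallest exact permutation p possible, 0.333. Leaving out Setd2D/D replicate 1 gave -0.35, and leaving out Setd2D/D replicate 2 gave -0.77. Taken 1 gene at a time, both knockout libraries lay below both controls for 5 of 7 genes, and the groups overlapped for Whsc1 and Setmar. The same held for 71.5% of all other tested genes set against Setd2, so the count is at the background, and all of these differences share the Setd2 values. The differences ranged from -0.42 (Setmar) to -0.85 (Smyd2), and the exact permutation p adjusted over the 7 was 0.667 for Whsc1 and Setmar and 0.467 for the other genes.

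Transcripts of the 8 genes summed to 449 and 460 TPM in Setd2f/f, against 457 and 380 TPM in Setd2D/D. Setd2 made up 17.6% and 14.8% of this sum in Setd2f/f and 9.51% and 13.1% in Setd2D/D. Both knockout shares were below both control shares, by the smallest margin in the replicate 2 libraries. Smyd2 made up 16.2% and 20.95% in Setd2f/f and 25.6% and 21.05% in Setd2D/D, with a margin of under 1 percentage point between Setd2f/f replicate 2 and Setd2D/D replicate 2.

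**Figure D3:**
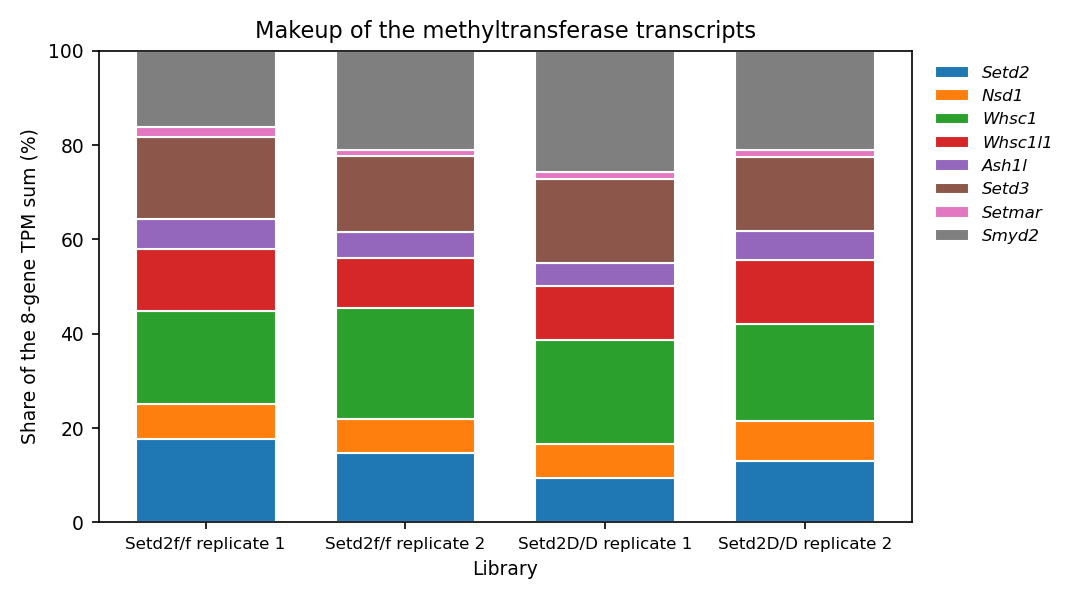
Share (%) of each gene in the summed TPM of the 8 genes, with 1 stacked bar per library. The Setd2 share is at the bottom of each bar, at 17.6% and 14.8% in Setd2f/f and 9.51% and 13.1% in Setd2D/D.

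The order of the levels within a library put Whsc1, Smyd2, Setd3 and Setd2 at the top in Setd2f/f. Within these 4, neighbours were not separable, since the values of each pair next to each other overlapped. Whsc1l1, Nsd1, Ash1l and Setmar followed, each below the one before in both libraries. Setd2 stood in place 2 and 4 of 8 in the Setd2f/f libraries and in place 5 in both Setd2D/D libraries, where Whsc1l1 had moved above it. Nsd1, Ash1l, Setd3 and Setmar kept the same place (6, 7, 3 and 8) in all 4 libraries. Among the tested genes of a library, Setd2 lay between percentile 72.0 and 84.6, Nsd1 between 63.8 and 64.9, and Setmar between 26.4 and 33.6.

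Genes were ranked by how like that of Setd2 their profile over the 4 libraries was. The measure was the root mean square difference of log2(TPM + 1), each centred on its own mean. The 9950 genes compared had a mean of at least 5 TPM, with Gm and Rik models, other clone names and pseudogenes passed over. Pgap3, which remodels the lipid anchor of cell surface proteins, was nearest at 0.010, with 12.4 and 10.4 TPM in Setd2f/f, against 6.39 and 7.52 TPM in Setd2D/D. Gtf2h3, a subunit of the transcription and repair factor TFIIH, came next (0.026, 44.9 and 40.0 against 24.2 and 27.8 TPM). Chd3, a nucleosome remodeller of the NuRD complex (0.038), the zinc finger gene Zfp664 (0.039) and Phkg2, a phosphorylase kinase subunit (0.039), followed. With 4 libraries and so many genes, near matches of this kind are a description. The next most alike of the 8 methyltransferase genes, Ash1l, ranked 1499 at 0.22, and Smyd2 ranked 8778 at 0.54.

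Other genes of the H3K36 methylation pathway were read from lists. Their counts at an unadjusted p under 0.05 are to be read against the 11.2% of all tested genes. Counts past an FDR of 0.05 in the authors' deposited table are to be read against 3.15% of 23955 genes. The genes named from each list are those with the smallest limma p. Of 8 demethylases, which remove the mark, 7 were tested, 0 passed limma over all genes, 1 of 7 had an unadjusted p under 0.05, and 0 of 8 passed in the authors' deposited table. The 1 gene was Kdm4b, which acts on trimethylated H3K36 and H3K9, and the count is near the background. It was at 20.2 and 23.2 TPM in Setd2f/f, against 12.9 and 12.3 TPM in Setd2D/D, with a limma log2 change of -0.74 (SE 0.19, adjusted p = 0.358). Kdm2b, a demethylase of dimethylated H3K36, was at 77.55 and 71.04 TPM against 41.1 and 71.3 TPM, with the low value in Setd2D/D replicate 1 alone.

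Of 15 readers of H3K36 methylation, 0 passed limma over all genes, 3 of 15 had an unadjusted p under 0.05 (all below 0) against 11.2% of all tested genes, and 0 passed in the authors' deposited table. Zmynd11, which binds trimethylated H3K36 on the histone variant H3.3 and restrains elongation, was at 106 and 109 TPM in Setd2f/f, against 65.8 and 74.6 TPM in Setd2D/D (limma log2 change -0.61, SE 0.12, adjusted p = 0.281). In the authors' deposited table its log2 change was -0.40 with an FDR of 0.0808. Msh6, the mismatch repair subunit that binds the trimethyl mark through its PWWP domain, was at 75.04 and 71.64 TPM against 54.0 and 59.4 TPM (adjusted p = 0.423). For both genes the knockout libraries lay below the controls. That held for 4 of the 15 readers, near the 27.6% of all tested genes.

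The 9 partners of Setd2 on RNA polymerase II had 0 genes past limma, 0 of 9 with an unadjusted p under 0.05 (11.2% of all tested genes) and 0 past the FDR of the authors' deposited table. Hnrnpl, the splicing factor that binds Setd2, was at 379 and 379 TPM in Setd2f/f, against 425 and 427 TPM in Setd2D/D (log2 change 0.17, limma adjusted p = 0.514). Ctr9 of the PAF1 complex was at 70.25 and 68.65 TPM against 62.1 and 63.4 TPM (adjusted p = 0.669).

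Of 26 other genes with a SET domain, the catalytic fold of these enzymes, 25 were tested. None passed limma over all genes (0 of 25), 2 of 25 had an unadjusted p under 0.05, a share below the 11.2% of all tested genes, and 1 was higher and 0 lower in the authors' deposited table. Setd6, a methyltransferase of the NF-kB subunit RelA, was at 30.1 and 30.8 TPM in Setd2f/f, against 57.3 and 48.5 TPM in Setd2D/D (limma log2 change 0.77, SE 0.15, adjusted p = 0.280). The authors' deposited table gives it a smaller log2 change of 0.43 with an FDR of 0.516. Setd8, which monomethylates H4K20, was at 133.0 and 124.5 TPM against 168 and 153 TPM, with 0.45 and an FDR of 0.0269 in the authors' deposited table (limma adjusted p = 0.427). Across the 33 tested SET genes, members included, Setd2 had the lowest limma log2 change, at -0.65 (SE 0.15). Smyd3 at -0.49 (SE 0.26) and Setdb2 at -0.42 (SE 0.23) followed, and these SEs do not settle their order. Among all tested genes, 9.01% had a lower limma log2 change than Setd2. In the authors' deposited table Smyd3 was at -0.15 with an FDR of 0.858, and Setdb2 at -0.12 with an FDR of 0.903. Setd6 had a smaller unadjusted limma p than Setd2.

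**Figure D4:**
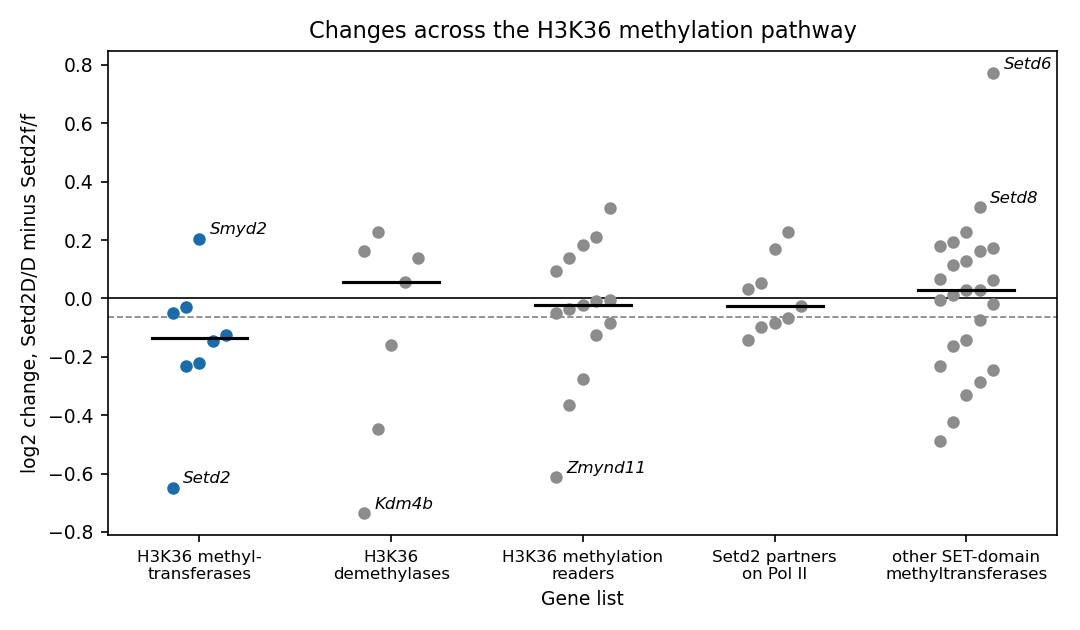
The limma log2 change of each tested gene, Setd2D/D minus Setd2f/f, by list, with the list's median as a black bar, 0 as a solid line and the median of all tested genes (-0.06) as a dashed line. List medians lie between -0.14 (H3K36 methyltransferases, blue) and 0.06 (demethylases), and no gene shown passed an adjusted p of 0.05.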

How the data were processed

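The authors deposited TPM values per gene for 4 libraries, and a table of their own comparison with log2 fold changes, mean log2 CPM and an FDR (an adjusted p-value) per gene. The genome build was mm10 and the tools were cutadapt, RSEM and edgeR, per the submitters' processing notes, which state neither version nor step. A comma in a gene name had shifted the fields of 5 rows in the TPM table and 2 in the comparison, and these were rejoined. TPM keeps no read depth, so total reads per library are not given here, and no counting interval was computed. RSEM shares reads among isoforms, and a change of isoform can move TPM apart from CPM. Over the tested genes the authors' deposited log2 change minus the limma change had a median of 0.05.

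Genes reaching 1 TPM in 2 or more libraries were transformed to log2(TPM + 1) and fitted with limma 3.58.1 in R 4.3.3. The model had 1 term for genotype. Variances were moderated along a trend with abundance, tests were 2-sided, and p-values were adjusted by Benjamini-Hochberg over all genes. The fit was tested on simulated data. Alternatives were other pseudocounts, filters, scalings and variance moderation, leaving out each library, and a replicate block. Coordinates are from GENCODE M21 on GRCm38, which is mm10. The 8 genes and the lists were chosen with earlier results of these data known. Named genes were the 8 genes, at most 2 per pathway list with the smallest limma p and a mean of at least 1 TPM, the 5 nearest profiles to Setd2 and the marker genes. Other names (Gm37422, Dap3, Nelfa, Smyd3, Setdb2, Prdm9) were chosen after their values were seen.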

Additional observations from a re-analysis of the deposited data

How the results depend on the processing

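The log2 change of Setd2 was below 0 and not past the adjusted threshold in all 14 alternatives (-0.75 to -0.54, limma adjusted p between 0.197 and 0.949), and 0 of the 8 genes passed in any. The difference between Setd2 and the mean of the other 7 kept its sign in all 6 alternatives run. Ash1l kept its sign in all 14. Nsd1 was at 0.020, 0.027 and 0.050 and Whsc1l1 at 0.002, 0.008 and 0.006 after scaling by trimmed means, median ratios and quantiles. Leaving out 1 library at a time gave log2 changes from -0.167 to 0.067 for Whsc1l1, -0.330 to 0.038 for Whsc1, -0.340 to 0.089 for Setd3, -0.526 to 0.066 for Setmar and -0.068 to 0.477 for Smyd2. The count of genes past limma over all genes was 10, and became 3 with a pseudocount of 0.1, 0 with no filter, 19 without the trend, 0 with the replicate block, and 0 without any 1 library (from 0 to 0), where the lone library of a genotype is assumed to vary like the other pair. For these shifts the cause was not tested. Libraries with the same number did not deviate together (r = 0.04 across 14755 genes), so the replicate block pairs them by number only. With it, Setd2 stayed at -0.65 with a limma adjusted p of 0.415. Precision was lowest for Setmar (SE 0.33), the gene of lowest level.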

Other observations

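Prdm9, which trimethylates both H3K4 and H3K36 and is known for placing recombination sites in germ cells at meiosis, was detected in all 4 LSK libraries. It lies on chromosome 17 (GRCm38, 15543079 to 15564354) and was at 9.94 and 8.48 TPM in Setd2f/f, against 11.7 and 7.49 TPM in Setd2D/D. The groups overlapped, with a mean of 9.21 ± 1.03 against 9.61 ± 2.99 TPM (SD, n = 2 libraries each) and a limma log2 change of 0.03 (SE 0.30, adjusted p = 0.983). These levels are above those of Setmar in each library, on the same length-normalised scale. In the annotation, 0 other genes share exon bases with Prdm9. Whether reads from similar sequence elsewhere were assigned to Prdm9 was not tested. Which of its exons the reads cover cannot be read from gene-level values.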
